A study of Rattus norvegicus with 12 samples.

Results

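The copper transport and chaperone genes examined here are 10 genes that move copper across membranes and hand it to its users inside the cell. They are the exporting ATPases Atp7b and Atp7a, the membrane transporters Slc31a1 and Slc31a2, the chaperones Atox1, Ccs, Cox17 and Sco1, the Atp7b partner Commd1 and the plasma copper protein Cp. The members were listed by name, and all 10 were found on the array, with 19 probe sets out of 31042 tested, among 14217 genes with a name. None of the 19 probe sets was annotated to several genes, and no filter on low values was applied, so all 19 were tested.

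Copper enters the hepatocyte through Slc31a1 and is passed on by small carrier proteins, because free copper ions damage the cell. Atox1 delivers copper to Atp7b, which loads it into ceruloplasmin (Cp) in the secretory pathway and, when copper is in excess, drives it into bile. The Long Evans Cinnamon (LEC) rat carries a partial deletion of Atp7b and is used as a model of Wilson disease, in which copper builds up in the liver, followed by hepatitis and liver tumors.

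RNA of male rat liver was hybridised to 12 Affymetrix Rat Expression 230 2.0 arrays. There were 4 arrays of LEC/Crj liver tumor at 67 weeks of age, 4 arrays of LEC/Crj nontumor liver at 67 weeks, 1 array each of LEC/Crj liver at 4, 26 and 39 weeks, and 1 array of liver from the Long Evans Agouti (LEA) strain at 67 weeks, the control strain. All rats were kept specific pathogen-free and viral antibody-free, and no treatment is named. Each tumor or nontumor array was a pool of RNA from 2 tissue pairs taken at random out of 8, so an array averages animals. The design names 4 sets of pairs. That number allows each pair to be used once, but whether a pair entered more than 1 pool is not stated. The other arrays were also pools, of an unstated number of rats. Values are log2 expression, and a difference of 1 is 2-fold. Array medians lay between 7.39 and 7.51, at 7.48 to 7.51 on the tumor arrays and 7.39 to 7.44 on the others. No probe set's level is set against another's, because probe sets differ in how brightly they hybridise. The exception is a rough check of background, which uses probe sets for RNA absent from the sample.

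Although every array is labelled male, the female-specific transcript Xist read 5.27 and 5.67 on the LEC arrays of 26 and 39 weeks, against 11.36 to 13.12 on the other 10 arrays. The Y-linked Eif2s3y read 8.90 and 8.18 on those 2 arrays, against 3.65 to 3.81 on the other 10. The sex label thus goes against the transcripts on 10 arrays, and the arrays labelled 26 and 39 weeks stand apart from the rest in this respect. The tumor, nontumor and LEA arrays were all among these 10. Tumor, nontumor and LEA differences do not use those 2 arrays, since each is a group of its own in the fit. The comparisons with 26 and 39 weeks rest on them.

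The promoters of 3 members are shown because their genes stand at 3 points of the route, the lone gene that was higher in tumor by its brightest probe set (Slc31a2), the carrier to the exporters (Atox1) and the exporter deleted in part in LEC rats (Atp7b). The sequences are RefSeq's for the GRCr8 build, and so for another strain than LEC or LEA. They run 5′ to 3′ on the gene's strand up to the base before the annotated gene span. Whether that span begins at the transcription start was not checked, so part of a stretch, Atp7b's included, may be transcribed. Capitals mark matches, on either strand, to the core of the metal response element (TGCACNC or TGCGCNC), the GC box (GGGCGG) or the core of the antioxidant response element (TGACNNNGC). The core of the hypoxia response element (ACGTG) was searched as well. The Slc31a2 stretch lies at chr5:80753368-80753588 on the plus strand, the Atox1 stretch at chr10:40080628-40080811 on the minus strand and the Atp7b stretch at chr16:76654475-76654724 on the plus strand.
Slc31a2: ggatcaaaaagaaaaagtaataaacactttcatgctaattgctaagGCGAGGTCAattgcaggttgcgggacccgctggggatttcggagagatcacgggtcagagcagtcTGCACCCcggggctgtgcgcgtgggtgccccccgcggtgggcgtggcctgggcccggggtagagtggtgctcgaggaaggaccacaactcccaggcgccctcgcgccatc
Atox1: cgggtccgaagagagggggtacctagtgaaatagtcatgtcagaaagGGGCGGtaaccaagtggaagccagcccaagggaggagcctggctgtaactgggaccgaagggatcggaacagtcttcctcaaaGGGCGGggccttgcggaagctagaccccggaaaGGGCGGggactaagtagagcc
Atp7b: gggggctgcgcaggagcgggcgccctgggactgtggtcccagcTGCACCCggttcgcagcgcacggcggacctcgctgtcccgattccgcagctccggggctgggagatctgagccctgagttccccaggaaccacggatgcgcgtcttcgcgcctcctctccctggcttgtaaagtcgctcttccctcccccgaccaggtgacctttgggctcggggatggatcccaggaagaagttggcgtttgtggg

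In the 250 bases before the start used by the promoter table, the metal response core was found in 5 of the 10 members, Slc31a2, Ccs, Cox17, Atp7b and Commd1, against 20.6% of 33469 rat promoters. Part of that window can lie inside the annotated gene span, and before the span the core was found in 3 members, Slc31a2, Cox17 and Atp7b. For Slc31a1, Atp7a and Cp the whole window lies inside the span, so no match before it was possible. The shares of all promoters given here are for the full window. None was worked out for the stretch before the span. The GC box was found in 4 members, Slc31a1, Atox1, Ccs and Sco1, against 30.5% of promoters, and before the span in 2, Atox1 and Sco1. Atox1 held 4 copies in the window, of which 3 lie before the span and are shown. Slc31a2 alone among the members held the antioxidant response core, found in 10.1% of promoters, and the hypoxia response core, found in 16.6%. The hypoxia match lies inside the gene span, so it is not in the stretch shown, and it was counted on both strands because the site reads the same way in either direction. These matches are letters in a window and were not tested against the expression values. Slc31a2 and Slc31a1 are neighbours on chromosome 5, with a single protein-coding gene, Fkbp15, between them.

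Atp7b, the gene deleted in part in LEC rats, was lower on all 11 LEC arrays than on the LEA array by its brightest probe set, 1370324_at. On it the LEC arrays of 4, 26 and 39 weeks read 8.55, 8.27 and 8.51, the tumor arrays 8.28, 8.37, 8.36 and 8.33, and the nontumor arrays 8.64, 8.53, 8.55 and 8.62, against 9.17 on the LEA array. On probe set 1369123_a_at the 11 LEC arrays read 5.83 to 6.39, against 6.59 on the LEA array. The 27 probe sets for RNA absent from the sample read at most 6.22 on any array, and 1370324_at was above that on all 12 arrays. On 1369123_a_at 10 of the 11 LEC arrays lay at or below 6.22, and those of 4, 26 and 39 weeks lay within the absent-RNA range of their own array, so its LEC values are close to background and give little about the size of a difference. Where either probe set lies relative to the deletion is not given in the sources used here, so neither checks the deletion itself.

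Nontumor LEC liver against LEA liver sets the strains side by side at the same age outside the tumor. Strain and the liver disease of LEC rats cannot be told apart in it. Atp7b 1370324_at averaged 8.59 ± 0.05 in nontumor tissue (SD, n = 4) and 9.17 in the lone LEA array, a log2 difference of -0.58 ± 0.10 (SE; limma, adjusted p = 0.0469). It was the single member called of 10, where 0.563% of all genes were called in either direction and 0.331% lower. This call lay close to the threshold and was lost in 13 of 14 alternatives, with adjusted p between 0.0313 and 0.129 by limma, while the difference stayed between -0.60 and -0.48. The other Atp7b probe set, close to background in LEC liver, was not called (-0.37 ± 0.14, limma adjusted p = 0.344). The LEA group is 1 array, which was assumed to vary like the replicated groups.

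Cox17, a mitochondrial carrier of copper for cytochrome oxidase, was the member with the next lowest p in that comparison. It read 10.18, 10.47, 10.46 and 10.40 in nontumor tissue, against 9.77 in LEA liver, the lowest of the 12 arrays. The log2 difference of 0.61 ± 0.13 did not pass the adjusted test (limma, adjusted p = 0.109). Of the 10 genes 2 had an unadjusted p under 0.05, Atp7b and Cox17, and the median log2 difference of the members was -0.035, beside -0.034 over all genes. Atox1 read 11.83 to 12.13 in nontumor tissue, against 11.60 in LEA liver, and its difference of 0.35 ± 0.18 was not called (limma, adjusted p = 0.469).

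**Figure D1:**
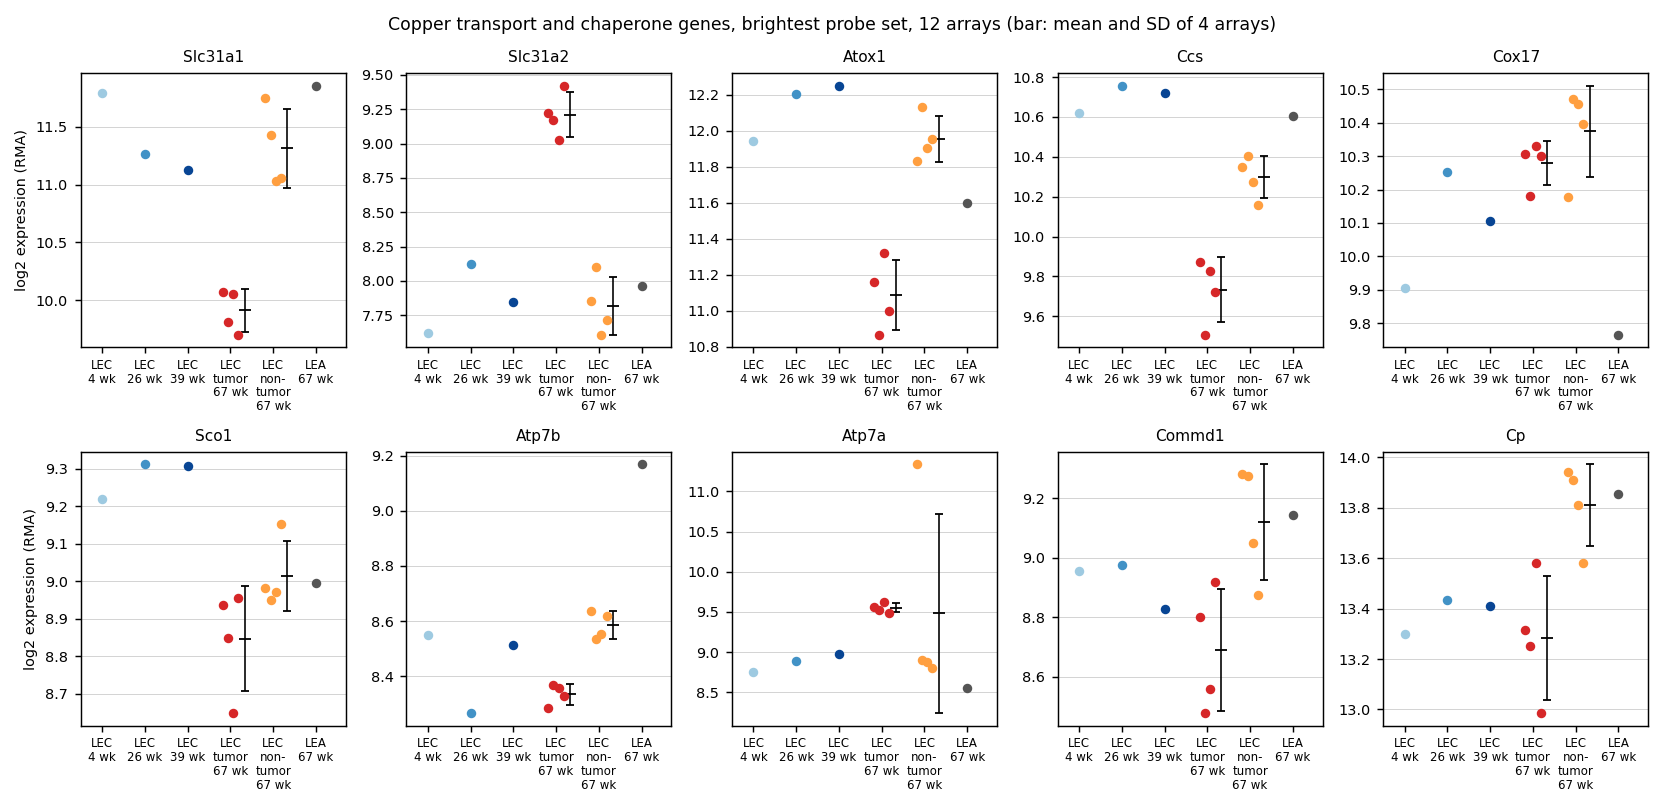
Log2 expression (vertical axis) of the brightest probe set of each member on all 12 arrays, with groups along the horizontal axis, 1 point per array and a bar for the mean and SD of the groups with 4 arrays. Slc31a1 was lowest and Slc31a2 highest on the 4 tumor arrays, and Atp7b was highest on the LEA array.

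Tumor against nontumor tissue of LEC liver at 67 weeks asks which steps of copper handling differ within the diseased liver. Of the 10 genes, 1 rose, 6 fell and 3 did not pass the test, where 67.9% of all genes were called, 38.8% higher and 29.2% lower. Of the 19 probe sets, 3 rose, 12 fell and 4 did not pass, where 63.9% of all probe sets were called, 31.7% higher and 32.2% lower. The median log2 difference of the 10 genes was -0.34, beside 0.07 over all genes. Being called was therefore about as frequent among the members as among all genes, and the sizes and the directions are what follow.

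Slc31a1, the high-affinity importer that brings copper into the cell, was lower in tumor on all 4 of its probe sets. Probe set 1388534_at read 10.07, 9.81, 10.06 and 9.70 on the tumor arrays, against 11.75, 11.43, 11.03 and 11.05 on the nontumor arrays. The groups did not overlap, and every tumor array lay below every other array of the series. The log2 difference was -1.40 ± 0.17, a 2.65-fold lower level (limma, adjusted p = 1.52e-04). The other 3 probe sets, 1368045_at, 1368046_at and 1394871_at, differed by -1.63 ± 0.23, -1.99 ± 0.33 and -1.70 ± 0.17, each with groups apart and each called (limma, largest adjusted p = 9.19e-04). Over the 12 arrays the 4 probe sets followed each other with Pearson correlations of 0.98 to 0.99, given as a description.

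Slc31a2, a relative of Slc31a1 that sits mainly in endosomes and lysosomes, was higher in tumor. Probe set 1373657_at read 9.22, 9.17, 9.02 and 9.42 on the tumor arrays, against 7.85, 8.10, 7.61 and 7.72 on the nontumor arrays. All 4 tumor arrays lay above the other 8 arrays, which reached at most 8.12. The log2 difference was 1.39 ± 0.12, a 2.62-fold higher level (limma, adjusted p = 2.93e-05). Its second probe set, 1394954_at, was also higher, by 0.67 ± 0.09 with groups apart (limma, adjusted p = 3.43e-04), and by 0.44 after quantile normalization again. Both transporters passed the test in opposite directions.

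The tumor arrays also differed from the nontumor arrays in markers of cell types. Of the 13 measured hepatocyte markers 0 rose and 10 fell, and their median per array was 12.48, 11.39, 13.15 and 8.91 in tumor, against 13.44 to 13.76 in nontumor tissue. All 7 bile duct markers rose, with medians of 11.79 to 12.11 in tumor and 7.64 to 8.92 in nontumor tissue. Of 12 stellate and matrix markers 11 rose, with medians of 10.52 to 11.40 in tumor and 8.33 to 8.86 in nontumor tissue. The other lists were less uniform. Of 8 endothelial markers 4 rose and 4 fell, and of 8 macrophage markers 3 rose and 3 fell. Of 9 lymphocyte markers 4 rose and 1 fell, and of 5 neutrophil markers 3 rose. Of 4 red cell markers 3 fell, and of 10 markers of other tissues 3 rose and 6 fell. Over all genes 38.8% were called higher and 29.2% lower. In bulk tissue, fewer cells of a type and less RNA per cell cannot be told apart, and the part of cell make-up in the copper gene differences was not tested. On tumor array 4, which had the lowest hepatocyte median, all 4 Slc31a1 probe sets were at their lowest, with 9.70 for 1388534_at and 7.46 for 1368046_at. On tumor array 3, which had the highest hepatocyte median, they read 10.06 and 8.49, and Slc31a2 1373657_at was at its lowest of the tumor arrays, 9.02. Tumor array 1 was slightly higher for Slc31a1 1388534_at, at 10.07. The second Slc31a2 probe set, 1394954_at, went another way, with 8.63 on tumor array 3 and its lowest tumor value, 8.45, on array 4.

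Atox1, the chaperone that hands copper to Atp7b and Atp7a, fell in tumor. It read 11.16, 10.87, 11.32 and 11.00 on the tumor arrays, against 11.83, 12.13, 11.90 and 11.95 on the nontumor arrays. The groups did not overlap, and the log2 difference was -0.87 ± 0.11 (limma, adjusted p = 2.19e-04). The tumor arrays were also below the LEA array, at 11.60, and below the arrays of 4, 26 and 39 weeks, at 11.94, 12.20 and 12.25.

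Ccs, which loads copper into the superoxide dismutase Sod1, fell as well. It read 9.87, 9.51, 9.83 and 9.72 in tumor, against 10.35, 10.41, 10.27 and 10.16 in nontumor tissue. The groups did not overlap, and the log2 difference was -0.56 ± 0.10 (limma, adjusted p = 0.00117). Its client Sod1 averaged 13.19 ± 0.17 in tumor and 13.80 ± 0.10 in nontumor tissue (SD, n = 4 each), a difference of -0.61 ± 0.10 (limma, adjusted p = 7e-04).

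The mitochondrial carriers Cox17 and Sco1, which bring copper to cytochrome oxidase, were not called. Cox17 read 10.31, 10.18, 10.33 and 10.30 in tumor, against 10.18, 10.47, 10.46 and 10.40 in nontumor tissue, with groups that overlapped and a difference of -0.10 ± 0.08 (limma, adjusted p = 0.346). Sco1 read 8.94, 8.85, 8.65 and 8.96 in tumor, against 8.98, 8.95, 8.97 and 9.15 in nontumor tissue, a difference of -0.17 ± 0.09 (limma, adjusted p = 0.133). Both were called lower when the arrays were quantile normalized again, and Sco1 also when array medians were subtracted.

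Atp7b was slightly lower in tumor, with 8.28 to 8.37 against 8.53 to 8.64 on the nontumor arrays for 1370324_at. The groups did not overlap, and the log2 difference was -0.25 ± 0.06 (limma, adjusted p = 0.00746), and -0.52 after quantile normalization again. Probe set 1369123_a_at, with values close to background, differed by -0.18 ± 0.09 and was not called (limma, adjusted p = 0.107), though it was called with array medians subtracted (-0.28, limma adjusted p = 0.0199). Commd1, which binds Atp7b and whose loss causes copper toxicosis in dogs, fell by 0.43 on the log2 scale, although its groups overlapped. It read 8.80, 8.48, 8.56 and 8.92 in tumor, against 9.28, 9.27, 9.05 and 8.87 in nontumor tissue (difference -0.43 ± 0.13, limma, adjusted p = 0.0175). The difference was -0.72 after quantile normalization again, and without tumor array 2 the call was lost (limma, adjusted p = 0.0515).

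Atp7a, the exporter of most tissues other than adult liver, gave probe sets that did not point the same way. Probe set 1392536_at read 9.57, 9.53, 9.63 and 9.49 in tumor, against 11.34, 8.90, 8.88 and 8.81 in nontumor tissue. Nontumor array 1 lay far above the other 3, and with it the difference was 0.07 ± 0.51 and not called (limma, adjusted p = 0.912). Without nontumor array 1 the tumor arrays were higher by 0.69 (limma, adjusted p = 2.3e-04). The other probe sets, 1369342_at and 1380395_at, were lower in tumor by -0.83 ± 0.24 and -0.57 ± 0.12 with groups apart (limma, adjusted p = 0.0146 and 0.003). Nontumor array 1 was also the highest of the 12 arrays on these 2 probe sets, at 8.45 and 7.78. No single direction is given for Atp7a.

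**Figure D2:**
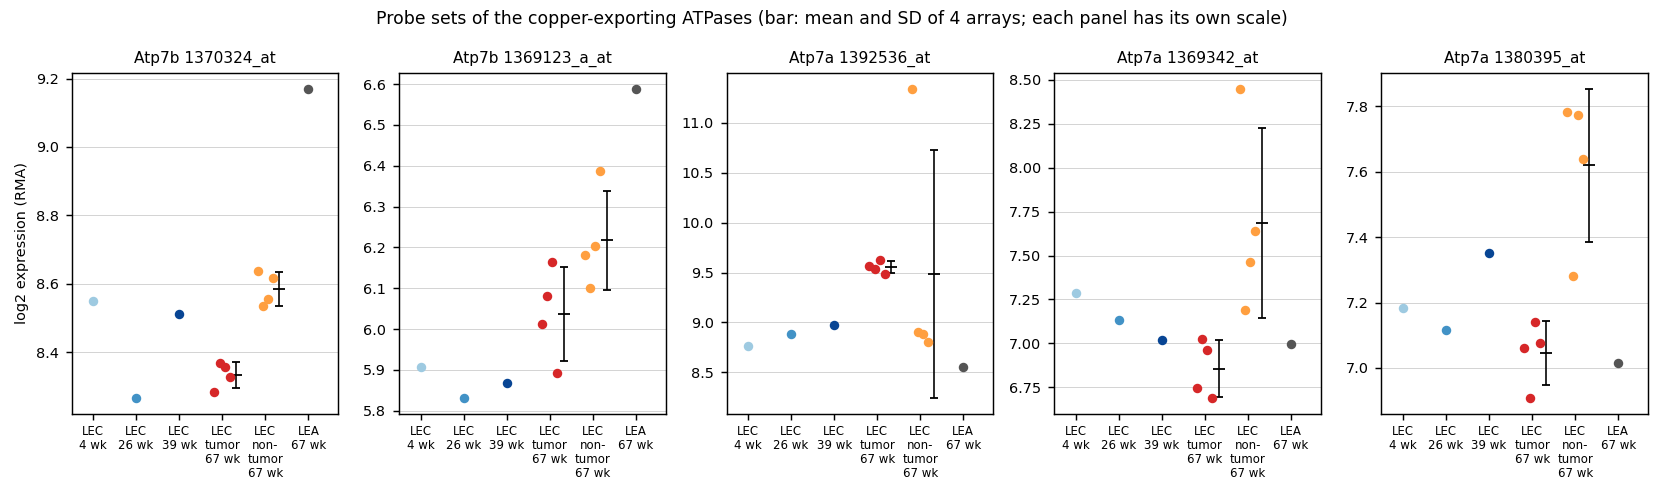
Log2 expression (vertical axis, own scale per panel) of the 2 Atp7b and 3 Atp7a probe sets on the 12 arrays, 1 point per array, with the mean and SD of the groups with 4 arrays. The LEA array was highest for both Atp7b probe sets, of which 1369123_a_at was close to background on the LEC arrays, and nontumor array 1 stood at 11.34 for Atp7a 1392536_at.

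Ceruloplasmin, the ferroxidase that carries most of the copper in plasma and receives it through Atp7b, also gave probe sets that differed in direction. The brightest, 1368418_a_at, read 13.31, 13.25, 13.58 and 12.99 in tumor, against 13.94, 13.91, 13.81 and 13.58 in nontumor tissue. The highest tumor array and the lowest nontumor array met at 13.58, and the difference was -0.53 ± 0.13 (limma, adjusted p = 0.00807). Probe set 1368420_at was likewise lower, by -0.62 ± 0.19, with groups that overlapped (limma, adjusted p = 0.0182).

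Cp probe set 1368419_at, in contrast, was higher in tumor. It read 12.61, 12.61, 12.28 and 12.85 on the tumor arrays, against 9.89, 10.78, 11.08 and 10.81 on the nontumor arrays. Every tumor array was above every other array, and the log2 difference was 1.94 ± 0.24, a 3.85-fold higher level (limma, adjusted p = 1.75e-04). The Cp gene gives rise to a secreted and a membrane-anchored protein by alternative splicing, and which transcript each probe set reads is not given in the sources used here. With the 3 probe sets averaged, Cp was called higher in tumor, by 0.27 (limma, adjusted p = 0.0445), so the call for the gene depends on the probe set.

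**Figure D3:**
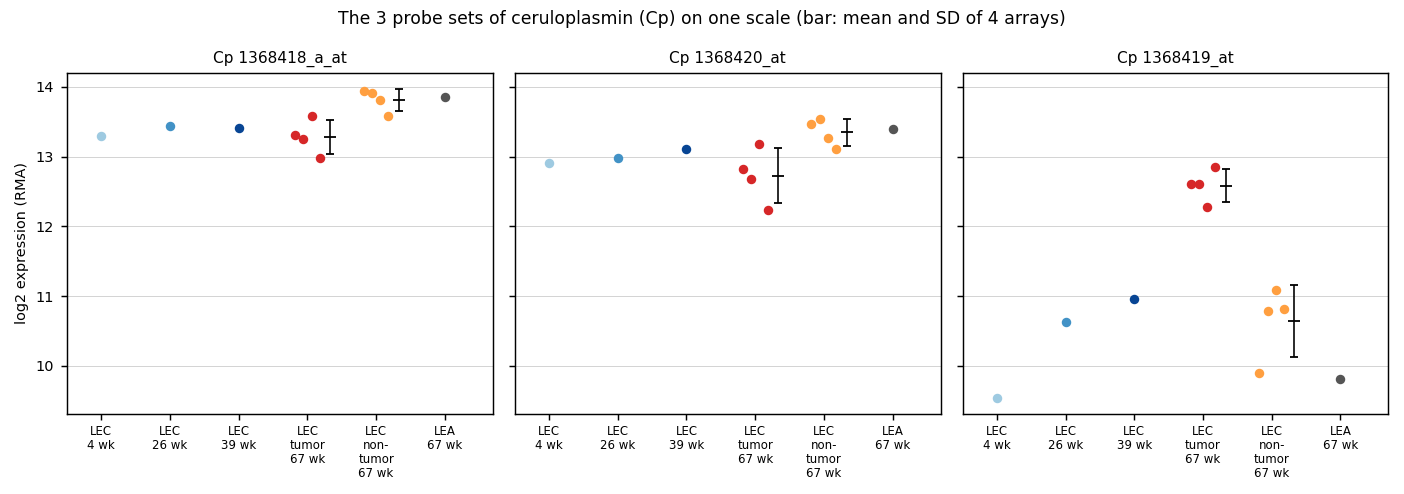
Log2 expression (vertical axis, shared) of the 3 ceruloplasmin probe sets on the 12 arrays by group, 1 point per array, with the mean and SD of the groups with 4 arrays. Probe sets 1368418_a_at and 1368420_at were lower on average in tumor, while 1368419_at stood at 12.28 to 12.85 in tumor and at 9.54 to 11.08 on every other array.

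Tumor against LEA liver gave 2 genes higher and 4 lower of the 10, where 46.3% of all genes were called, 27.1% higher and 19.2% lower. The comparison shares the tumor arrays with the one above and the LEA array with the strain comparison, so the 3 are not independent. Slc31a1 1388534_at was lower in tumor by -1.95 ± 0.27 (limma, adjusted p = 7.53e-04), and its other probe sets were lower by -1.95, -2.66 and -2.10, all called. Slc31a2 1373657_at was higher by 1.25 ± 0.20 (limma, adjusted p = 0.00148). Cox17, at 10.18 to 10.33 in tumor and 9.77 in LEA liver, was higher by 0.51 ± 0.13 (limma, adjusted p = 0.0157). The Cox17 call was lost after quantile normalization again (limma, adjusted p = 0.154).

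Atp7b 1370324_at was lower in tumor than in LEA liver by -0.84 ± 0.10 (limma, adjusted p = 3.67e-04). Probe set 1369123_a_at differed by -0.55 ± 0.14 (limma, adjusted p = 0.0148), with all 4 tumor arrays at or below the 6.22 of absent RNA. That 6.22 came from the array of 26 weeks. Each tumor value lay above the highest absent-RNA value of its own array, which was 5.52 to 5.67. On the LEA array that highest value was 6.11, so background by this measure was itself lower on the tumor arrays. The part of this shift in the difference of 1369123_a_at was not tested. Ccs was lower by -0.87 ± 0.16 (limma, adjusted p = 0.00274). Atox1, at 10.87 to 11.32 in tumor and 11.60 in LEA liver, was lower by -0.51 ± 0.18, with an adjusted p of 0.0464 by limma that passed the threshold narrowly and was lost in 7 of 14 alternatives. Cp 1368419_at was higher by 2.78 ± 0.38 (limma, adjusted p = 7.4e-04), while 1368418_a_at and 1368420_at were not called.

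**Figure D4:**
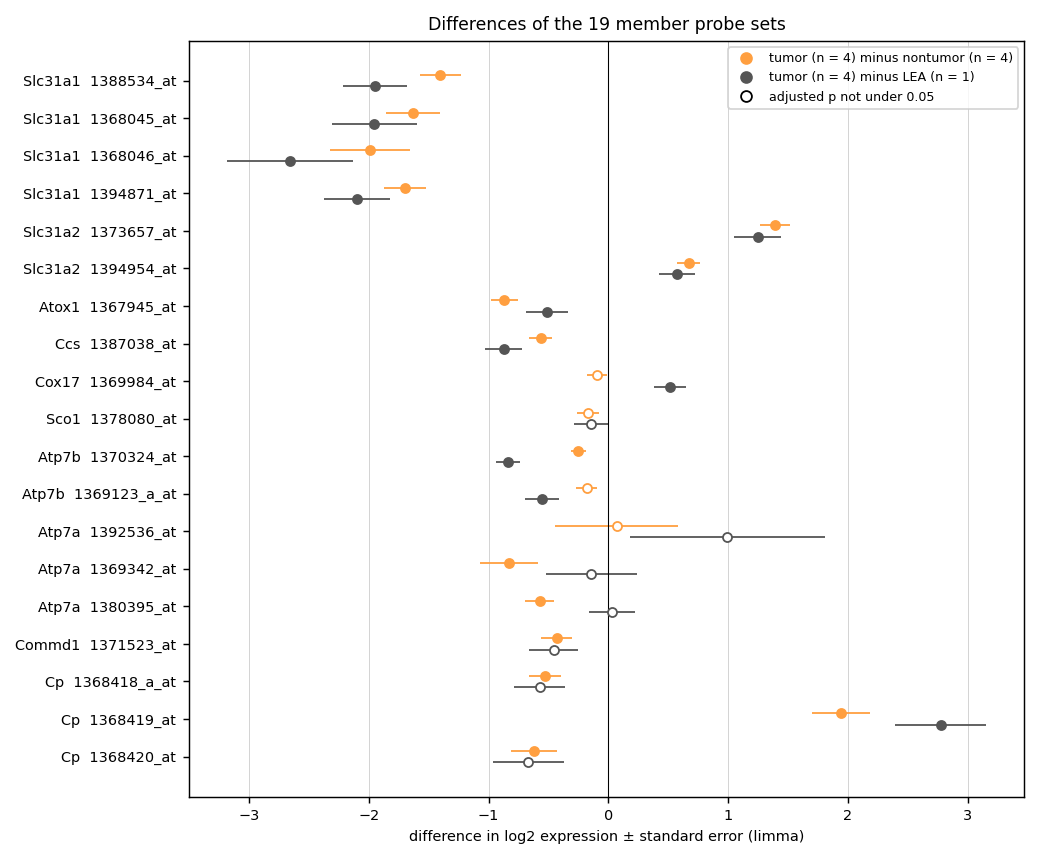
Log2 difference with its standard error (horizontal axis, limma) of the 19 member probe sets, for tumor minus nontumor (orange) and tumor minus LEA (grey), with open symbols where the adjusted p was not under 0.05. The 4 Slc31a1 probe sets lie left of -1.2 and Cp 1368419_at lies right of 1.9 in both comparisons.

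The age arrays place the members before tumors are sampled. These comparisons share the nontumor arrays with those above. Against the LEC arrays of 4, 26 and 39 weeks, 0 of 10 members were called in nontumor tissue at 67 weeks by limma, where 0.464%, 0.239% and 0.155% of all genes were called, and 2, 2 and 1 members had an unadjusted p under 0.05. The age arrays were 1 each, so among themselves only differences are given. Slc31a1 1388534_at read 11.80, 11.26 and 11.13 at 4, 26 and 39 weeks, and its other 3 probe sets were also lower at 26 and 39 weeks than at 4 weeks, with log2 differences of -0.71 to -0.9999. All 4 stayed short of 2-fold, the size used as a threshold for lone arrays. The arrays of 26 and 39 weeks also differ from the 4-week and nontumor arrays in Xist and Eif2s3y. Age and that difference cannot be told apart, for Slc31a1 or in the comparisons of nontumor tissue with 26 and 39 weeks. Nontumor values at 67 weeks, 11.03 to 11.75 for 1388534_at, spanned nearly the same range.

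Cp 1368419_at was the probe set among the 19 that passed 2-fold with age. It read 9.54, 10.63 and 10.96 at 4, 26 and 39 weeks, against 9.81 in LEA liver at 67 weeks. The difference was 1.09 between 26 and 4 weeks, 1.42 between 39 and 4 weeks and 1.15 between 39 weeks and LEA, each as 1 of 19 member probe sets, where 2.27%, 2.24% and 3.23% of all probe sets passed 2-fold. The arrays of 26 and 39 weeks are also the 2 with low Xist and high Eif2s3y, so age and this difference between the arrays cannot be told apart. The bile duct marker median was 6.82, 8.26 and 8.43 at 4, 26 and 39 weeks, and its part in the Cp value was not tested. Atox1 and Ccs differed by 0.31 or less among the 3 age arrays.

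The wider copper gene lists held 53 measured genes of 59, of which 24 rose, 13 fell and 16 did not pass the test between tumor and nontumor tissue, with a median log2 difference of 0.12. The 37 called are 69.8% of the list, near the 67.9% of all genes. Between nontumor and LEA liver 0 of the 53 were called by limma, where 0.563% of all genes were. Of 13 copper-dependent enzymes 9 rose and 2 fell in tumor, where 38.8% of all genes were called higher and 29.2% lower. Aoc1, a diamine oxidase, averaged 12.16 ± 0.13 in tumor and 7.96 ± 0.57 in nontumor tissue (SD, n = 4 each), a difference of 4.20 ± 0.25 (limma, adjusted p = 3.9e-06). Lox and Loxl1, which cross-link collagen and elastin, were higher by 3.27 ± 0.23 and 3.23 ± 0.16, beside the rise of the matrix markers given above. Pam, which amidates peptides, was higher by 1.93 ± 0.10, and by 0.51 as the mean over its probe sets.

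Of 9 genes that bind or sense copper 7 rose and 2 fell, against the same 38.8% and 29.2% of all genes. Prnp, the prion protein, read 12.33, 12.30, 12.11 and 12.43 in tumor, against 8.48, 9.08, 9.59 and 8.03 in nontumor tissue, and rose by 3.50 ± 0.29 (limma, adjusted p = 2.07e-05). The amyloid precursor App and its relative Aplp2 rose by 1.54 ± 0.12 and 1.29 ± 0.12, Aplp2 by 0.42 as the mean over its probe sets, and S100a13 rose by 1.10 ± 0.14. Of the 5 metal reductases, enzymes that reduce copper or iron before uptake, 2 rose and 1 fell, a share called of 60.0%. Steap2 rose by 1.51 ± 0.17 (0.82 as the mean over its probe sets), Cybrd1 rose by 0.74 ± 0.09 and Steap3 differed by -0.95 ± 0.13. Their groups were apart, which was a condition for naming them.

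The metallothioneins, which store copper and zinc, gave 1 call among 3 measured, where 67.9% of all genes were called. Mt2A read 13.64, 12.28, 13.63 and 11.32 in tumor, against 13.88, 14.03, 14.31 and 14.39 in nontumor tissue and 12.83 in LEA liver. All tumor arrays were below all nontumor arrays, with a difference of -1.43 ± 0.48 (limma, adjusted p = 0.0271), a call lost in 4 of 17 alternatives. Mt1 differed by -0.34 ± 0.24 and was not called (limma, adjusted p = 0.241). The tumor arrays with the lowest Mt2A, arrays 4 and 2, were also those with the lowest hepatocyte marker medians, and the link was not tested.

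Among the 6 other measured genes of copper delivery to cytochrome oxidase, 1 rose and 4 fell, or 83.3% called against 67.9% of all genes. The assembly factor Cox16 differed by -0.77 ± 0.13, Cmc2 by -0.42 ± 0.06 and Cmc1 by -0.36 ± 0.09 (-0.72 and -0.62 for the Cmc genes after quantile normalization again), while the mitochondrial phosphate and copper carrier Slc25a3 rose by 0.45 ± 0.08. Of 17 partners of exporter traffic 5 rose, 3 fell and 9 did not pass, a share called of 47.1%, below that of all genes. Vps35, of the retromer that recycles the exporters from endosomes, rose by 0.65 ± 0.08, and Clu, a chaperone that binds Atp7a and Atp7b, rose by 0.62 ± 0.10 (0.40 as the mean over its probe sets). Dctn4, a dynactin subunit that binds Atp7b, rose by 0.54 ± 0.10 (0.24 after quantile normalization again, limma adjusted p = 0.0493) and Commd5, a relative of Commd1, differed by -0.66 ± 0.14. Glrx had the largest called difference of this list, -1.17 ± 0.32 (limma, adjusted p = 0.0113), but its groups overlapped.

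**Figure D5:**
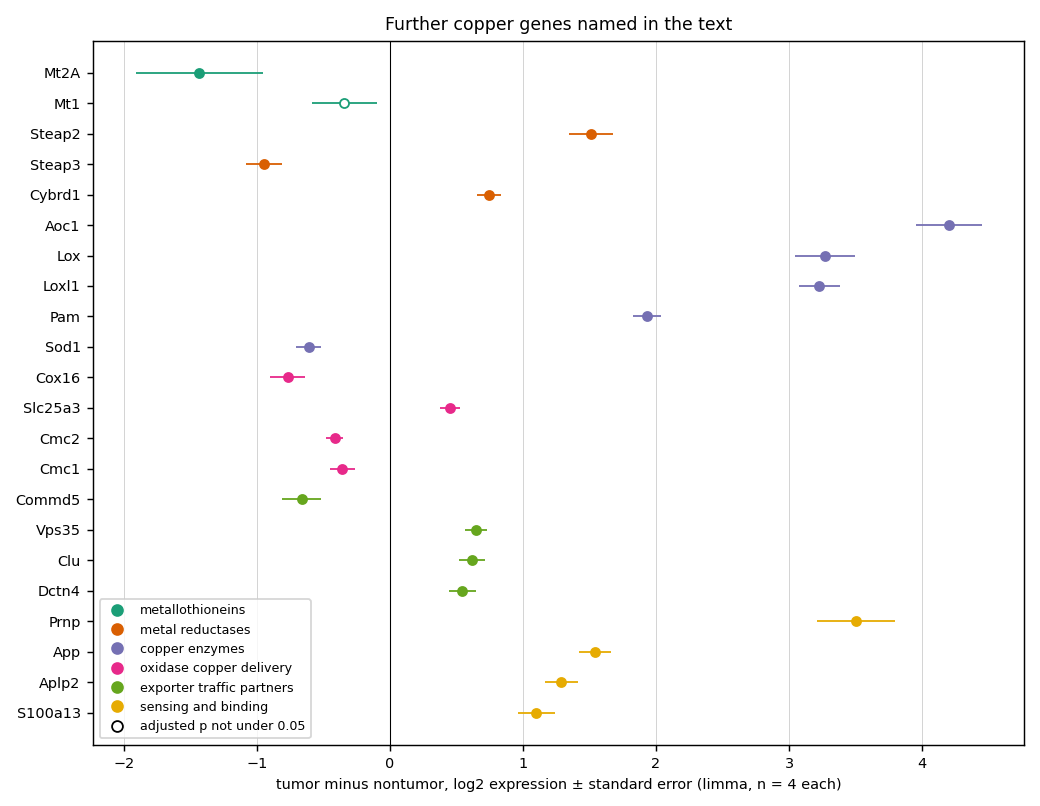
Log2 difference of tumor minus nontumor with its standard error (horizontal axis, limma, n = 4 each) for the further copper genes named in the text except Glrx, coloured by list, with open symbols where the adjusted p was not under 0.05. The copper enzymes Aoc1, Lox and Loxl1 and the binding protein Prnp lie right of 3.

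The genes whose values followed the transporters most closely over the 12 arrays were, for Slc31a1, Paqr9, Slc37a4 and Igf2bp3, with Pearson correlations of 0.9928, 0.9917 and 0.9909. For Slc31a2 they were Ppil4, Ptp4a2 and Pnrc2, with 0.9944, 0.9932 and 0.9924. These were the highest of 13963 genes compared, and with 4 tumor arrays apart from 8 others they mainly describe that split.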

How the data were processed

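The deposited values were log2 expression per probe set, which, per the submitters' processing notes, the authors obtained by RMA using R (2.6.1). Per the labels' protocols, 3 µg of RNA went into each labelling. Joint normalization of the 12 arrays is not stated, and no further normalization was applied for the main results. Arrays give no read depth, so their number limits the precision.

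Groups came from the sample titles. Of 31099 probe sets 57 controls were left out. A single gene was annotated to 20826 probe sets and several to 436, and symbols were updated through Entrez identifiers. A gene was represented by its brightest probe set over the 12 arrays, and all member probe sets are shown. lmFit and eBayes of limma 3.58.1 (R 4.3.3) fitted 6 group means to the 12 arrays at once, leaving 6 residual and 2.84 prior degrees of freedom, with two-sided p-values adjusted by Benjamini-Hochberg over 31042 probe sets and a threshold of 0.05. Lone arrays add nothing to the spread. Nothing states that pooled arrays are separate animals, so p-values measure the spread between pools. The test of tumor against nontumor was also run on simulated data in which few probe sets changed. The comparisons with a lone array were not evaluated there. Alternatives were another normalization, array medians, dim probe sets, the prior, array weights, the mean over probe sets, the arrays fitted, a block, a 2-fold threshold and leaving out each tumor and nontumor array.

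The 10 members and the 17 gene lists (174 entries, 150 measured) were chosen with earlier results of these data known. Named genes were all members and, per further copper list, up to 4 called genes whose groups did not overlap, by size, with Mt1, Mt2A and Sod1 always. Glrx, whose groups overlapped, is named besides for its size. Promoters and gene positions are from RefSeq (GRCr8).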

Additional observations from a re-analysis of the deposited data

Results flagged for a closer look

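In the 4 nontumor arrays, array 1 stood far from the other 3 for Atp7a 1392536_at, at 11.3389, with a gap to the nearest array that was 0.9629 of the group's range. For Sco1 1378080_at nontumor array 4, at 9.1527, stood apart in the same way, with a gap of 0.8392 of the range. Both gaps exceed the 95% critical value of Dixon's criterion for 4 samples. The criterion was applied 38 times, to 19 probe sets in tumor and nontumor tissue, and chance alone gives about 1.9 such cases (1 in 20).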

How the results depend on the processing

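The number of members called between tumor and nontumor tissue was 7, and 6 to 8 when each array was left out in turn. It was 2 (Slc31a1 and Slc31a2) under a 2-fold threshold, 9 after quantile normalization again and 8 with array medians subtracted. Fits of the 8 tumor and nontumor arrays alone, or without the arrays of 26 and 39 weeks, give this comparison the same values by construction, since lone arrays add nothing to the spread. For tumor against LEA it was 6, and 5 to 7 over all alternatives. For nontumor against LEA it was 1, and 0 after quantile normalization again, with array medians subtracted, without dim probe sets, with a trended robust prior and with the mean over probe sets, and 0 to 1 when each array was left out. Without nontumor array 1 the 1 call was Cox17, higher, and not Atp7b. The comparisons with 4, 26 and 39 weeks gave 0 throughout. The difference for Atp7a 1392536_at between tumor and nontumor tissue turned to -0.197 after quantile normalization again, -0.0321 with medians subtracted, -0.4762 with array weights and -0.4442 as the mean over probe sets, and to -0.1228, -0.1294 and -0.1542 without nontumor arrays 2, 3 and 4, and it was 0.6896 without nontumor array 1. Cp as the mean over its probe sets turned to 0.266 against nontumor and to 0.5124 against LEA. As means over probe sets, the differences of Steap2, Pam, Clu and Aplp2 were 0.82, 0.51, 0.40 and 0.42, and that of Dctn4 was 0.24 after quantile normalization again. The cause was not tested, beyond averaging probe sets that differ. Subtracting array medians moved the median difference of all probe sets from -0.0406 to -0.1434, and the share of calls that were higher from 49.6% to 39.5% (against LEA, from 52.5% to 41.9%).

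With the title number as a replicate block 7 members were called. Same-numbered tumor and nontumor arrays correlated between -0.0816 and 0.1423 in their deviations, and 3 of 4 tumor arrays correlated best with their own number. These weak correlations do not settle whether the numbers mark pairs, which is not stated. The main fit did not use the numbers as pairs. Which single differences were followed through the alternatives was chosen after the data were seen: all members for tumor against nontumor, and for the LEA comparisons those called or with groups apart. Among the member differences not followed, of which 2 Atp7a probe sets against LEA are plotted and the others not given, 35 of 860 values changed direction, 0 of them called.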
